A study of Mus musculus with 8 samples.

Results

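The small leucine-rich proteoglycans are secreted proteins of the extracellular matrix, and 8 of their genes are described here in stromal cell lines, with and without pre-B cells. These genes were Dcn, Bgn, Aspn, Lum, Fmod, Prelp, Omd and Ogn, chosen by name, which gave 8 of the 18194 genes named on the array and 19 of its 45101 probe sets. Each protein has a core of leucine-rich repeats that folds into a curved solenoid, and most carry chondroitin, dermatan or keratan sulfate chains. They are known for binding collagen and setting how fibrils grow and join. Several also hold growth factors such as TGF-beta in the matrix, and biglycan can signal through Toll-like receptors. In bone marrow such matrix is made largely by stromal cells, on which early B-lymphocytes develop.

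RNA was measured on Affymetrix mouse expression arrays, 8 arrays in 4 groups of 2. The groups were OP9 cells co-cultured for a week with 230-238 cells, a pre-B cell line, OP9 cells without pre-B cells, MC3T3 cells and NIH3T3 cells. OP9 is a stromal line from bone marrow and is labelled as B6C3F1, NIH3T3 is an embryonic fibroblast line and MC3T3 an osteoblast precursor line from calvaria, both labelled as Balb/c. The OP9 cells of both OP9 groups carried a retroviral mStrawberry gene, by which the stroma was sorted from the pre-B cells after trypsin/EDTA. The OP9 cells without pre-B cells were, according to the methods, kept in conditioned medium and were grown in another base medium than the NIH3T3 and MC3T3 cells, so that in comparisons with those lines the line and the culture condition cannot be told apart. One MC3T3 array, replicate 2, is labelled as sorted cells and the other as a culture. The replicates are labelled as biological, but nothing says that each came from a culture of its own, and the p-values then cover only the scatter of 2 arrays a group, which may be technical.

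All levels are linear intensities, normalized by the authors so that arrays can be compared. Array medians ranged over 41.8 to 45.0, and a level of 100 was reached by 34.3 to 36.3% of probe sets. Between the 2 arrays of a group, 1 of the tested genes differed by more than 2-fold in co-culture, 0 in OP9, 2 in MC3T3 and 61 in NIH3T3 cells. Of 8 stromal fibroblast markers, 7 had a mean of at least 100 in co-culture, 7 in OP9, 8 in MC3T3 and 6 in NIH3T3 cells. Thy1 was below it outside MC3T3 cells, and the chemokine Cxcl12 had 23.6 and 21.8 on the NIH3T3 arrays. Of 5 osteoblast markers measured, only Dmp1 reached a mean of 100 in MC3T3 cells, with 969.7 and 1142 on the 2 arrays, while Alpl had 31.9 and 23.1 and Ibsp 15.2 and 15.2. In OP9 and in NIH3T3 cells 1 of the 5 markers reached a mean of 100 as well. There it was Phex, with means of 124 in OP9 and 134 in NIH3T3 cells, against 29.2 in MC3T3 cells. The count of 1 of 5 therefore did not set MC3T3 cells apart.

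Differences were fitted with limma on the log2 scale over 10084 genes that had at least 100 on at least 2 arrays. A gene was called where its p-value, adjusted by the Benjamini-Hochberg method over these genes, was below 0.05 and its difference at least 2-fold. All 8 proteoglycan genes passed the filter, but Lum and Fmod passed it through the MC3T3 arrays alone, and Aspn and Omd through the OP9 arrays without pre-B cells alone. Each gene is given by 1 probe set, that of the highest average log2 level, and other probe sets of the same gene are named where they differ. Levels of different genes are not compared, since each probe set binds its target with its own strength.

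**Figure D1:**
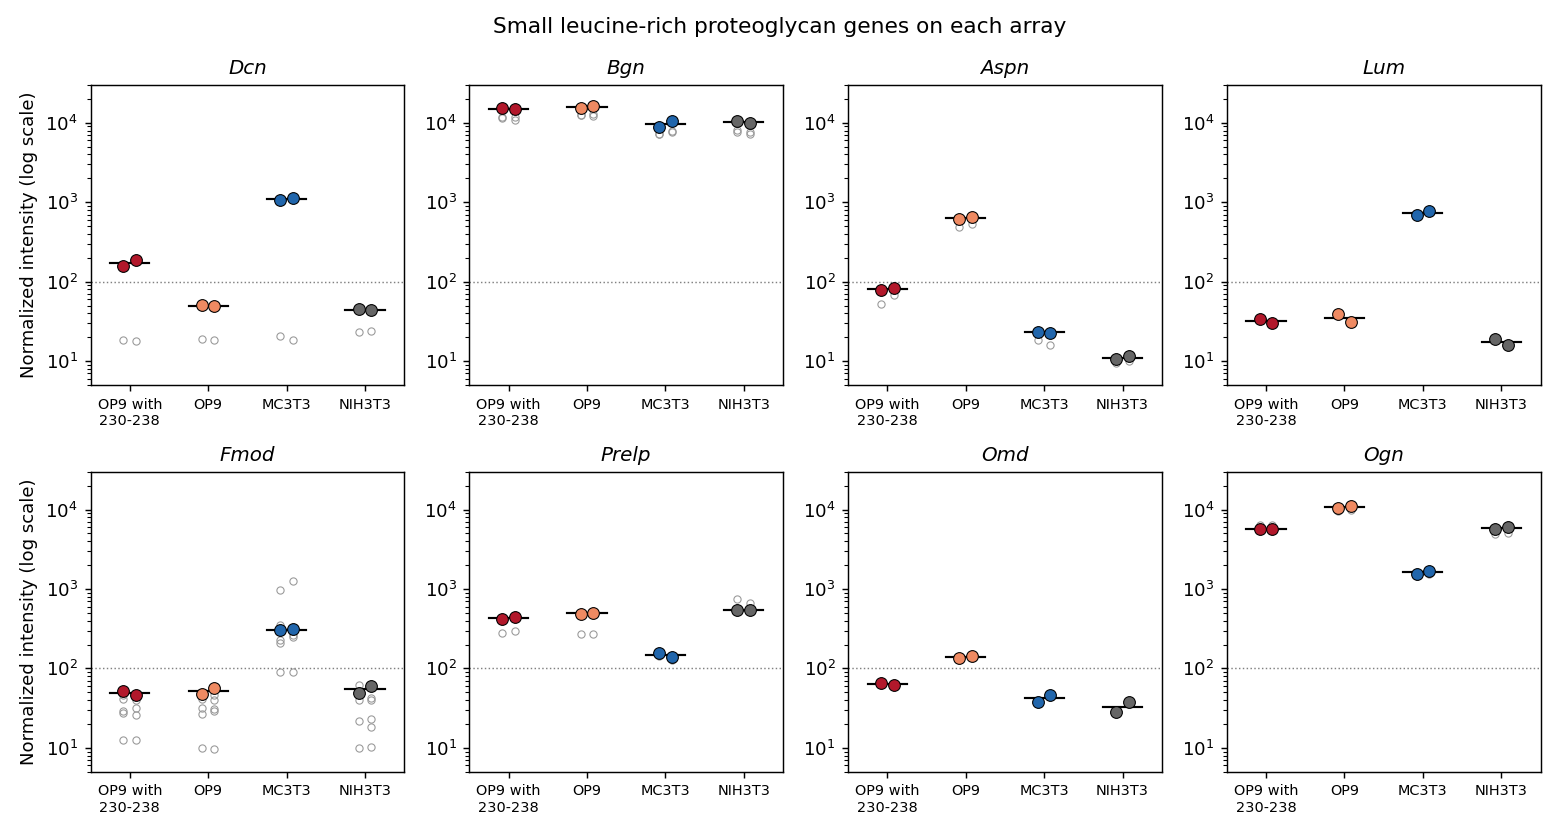
Normalized intensity (log scale) of the 8 genes on each array, in OP9 cells with 230-238 cells, OP9, MC3T3 and NIH3T3 cells. Filled points are the probe set used for the gene, open grey points its other probe sets, black lines the mean of 2 arrays, and the dotted line 100. Aspn was highest in OP9 cells, Dcn, Lum and Fmod in MC3T3 cells, and Bgn had at least 8919 on every array.

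The genes lie in a few clusters of the mouse genome, and those on chromosome 13 include Aspn, Omd and Ogn. There Ecm2, Aspn, Omd and Ogn are direct neighbours. Dcn and Lum are neighbours on chromosome 10, followed by Kera and Epyc, and Optc, Prelp and Fmod follow each other on chromosome 1, while Bgn is on the X chromosome. Promoters were matched for 6 of the 8 genes, all but Dcn and Lum. The 200 bases before the start of the 3 neighbours on chromosome 13 are shown because these 3 genes had the strongest negative differences of the 8 in co-culture against OP9 cells. They are from RefSeq, build GRCm38.p6, on the plus strand, with matches to the searched motifs in capitals. The positions are chr13:49544243-49544442 for Aspn, chr13:49582262-49582461 for Omd and chr13:49607815-49608014 for Ogn.
Aspn: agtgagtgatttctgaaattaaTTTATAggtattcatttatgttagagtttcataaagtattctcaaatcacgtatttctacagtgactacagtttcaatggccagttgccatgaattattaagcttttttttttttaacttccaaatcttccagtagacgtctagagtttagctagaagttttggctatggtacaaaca
Omd: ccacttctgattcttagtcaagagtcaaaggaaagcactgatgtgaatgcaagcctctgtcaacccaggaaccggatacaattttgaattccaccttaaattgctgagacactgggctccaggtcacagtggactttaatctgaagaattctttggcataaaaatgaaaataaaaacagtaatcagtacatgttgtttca
Ogn: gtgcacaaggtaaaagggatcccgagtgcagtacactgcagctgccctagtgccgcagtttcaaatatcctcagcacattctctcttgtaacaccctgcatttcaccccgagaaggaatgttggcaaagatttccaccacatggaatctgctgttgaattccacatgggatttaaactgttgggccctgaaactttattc
Both strands were searched for TATAAA (the TATA box), CCAAT (the CCAAT box), TGANTCA (AP-1) and TTGCNNCAA (C/EBP). The only match in the 3 windows was a TATAAA on the minus strand of the Aspn window, which begins 178 bases before the start. Of 27025 mouse genes with a window of the same length, 10.6% held TATAAA, 30.0% CCAAT, 5.55% the AP-1 motif and 1.4% the C/EBP motif. A match in letters is a description only.

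The first comparison asked how contact with pre-B cells affected the stroma. In OP9 cells with 230-238 cells Dcn rose 3.42-fold, Aspn fell 7.85-fold and Omd fell 2.20-fold, whereas the other 5 genes were not called. Thus 1 of 8 genes was higher, where 2.71% of all tested genes were, and 2 of 8 were lower, where 2.97% were (5.67% in either direction). Aspn and Omd, the 2 lower genes, passed the filter through the OP9 arrays alone. They were thus tested only because they were high in the reference group, which limits the comparison with 2.97%. The median log2 difference of the 8 genes was -0.16, and that of all tested genes -0.05.

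Dcn encodes decorin, which binds fibrillar collagen and TGF-beta. It had 156 and 187 in co-culture, against 51.2 and 48.9 in OP9 cells. Both co-culture arrays were thus above both OP9 arrays, and all 4 lay far below the MC3T3 arrays. The log2 difference was 1.77 ± 0.10 (SE, n = 2 arrays a group, limma adjusted p = 1.23e-05). The second Dcn probe set lay between 18.1 and 23.7 on all 8 arrays, also in MC3T3 cells, and was not tested. With the mean of the 2 probe sets the difference was 0.87 and Dcn was not called.

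Aspn encodes asporin, a relative of decorin and biglycan that binds collagen and TGF-beta. It had 79.1 and 82.9 in co-culture, against 622 and 649 in OP9 cells. No co-culture array came near the OP9 arrays, but neither did they fall to the level of the other lines. The log2 difference was -2.97 ± 0.07 (SE, n = 2, limma adjusted p = 5.51e-07), and its interval reached from -3.15 to -2.80. The other Aspn probe set had 51.9 and 67.9 in co-culture and 485 and 537 in OP9 cells, 8.60-fold lower (limma adjusted p = 1.45e-05).

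Omd encodes osteomodulin, also called osteoadherin, a keratan sulfate proteoglycan known from bone. It had 65.3 and 61.6 in co-culture, against 134 and 145 in OP9 cells. The arrays of the groups did not overlap, though the whole span lay low on the scale. The log2 difference was -1.14 ± 0.15 (SE, n = 2, limma adjusted p = 0.000872), and with 16 added to each value before log2 it was -0.97, under the 2-fold minimum.

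Ogn encodes osteoglycin, also called mimecan, a neighbour of Omd in the genome. It had 5662 and 5757 in co-culture, against 10603 and 11129 in OP9 cells. It was 1.90-fold lower (95% interval 1.68 to 2.15, limma adjusted p = 9.49e-05), so that the p-value passed and the 2-fold minimum did not. The other Ogn probe set had 6404 and 6416 in co-culture and 9701 and 9792 in OP9 cells, 1.52-fold lower. After quantile normalization the log2 difference of the gene was -1.03 and Ogn was called. The fourth gene of this cluster, Ecm2, had 28.2 and 22.2 in co-culture and 25.6 and 25.6 in OP9 cells and was not tested.

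The remaining 4 genes differed little. Bgn, which encodes biglycan, had 15293 and 14840 in co-culture, against 15298 and 16198 in OP9 cells. Its log2 difference of -0.06 had a 95% interval from -0.29 to 0.16, well within 2-fold. Lum encodes lumican, a keratan sulfate proteoglycan known for fibril spacing in the cornea, and it had 34.1 and 30.4 in co-culture, against 39.2 and 30.9 in OP9 cells. Fmod, which encodes fibromodulin, a proteoglycan of tendon and cartilage that shares a collagen site with lumican, had 52.1 and 46.7 in co-culture, against 47.5 and 57.3 in OP9 cells. For Lum and Fmod the arrays of the groups overlapped, and the intervals of the log2 difference were -0.44 to 0.22 and -0.38 to 0.21. Prelp encodes a protein rich in proline and arginine at its amino end that binds heparan sulfate, and it had 414 and 446 in co-culture, against 485 and 505 in OP9 cells (log2 difference -0.20, interval -0.39 to -0.01, limma adjusted p = 0.0812).

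Markers of several cell types moved in the same comparison. Whether RNA of pre-B cells remained in the sorted co-culture samples was not tested. In bulk RNA, fewer cells of a type and less RNA per cell cannot be told apart. Of 6 adipocyte markers, 5 were called lower in co-culture, where 2.97% of all tested genes were. Of the 5, Cidec passed the filter through the OP9 arrays alone, which limits the comparison with 2.97%. The summed level of the 6 was 11766 to 11871 in co-culture, against 34566 to 34597 in OP9 cells. Adipoq, which encodes adiponectin, fell 30.7-fold and Cidec, a lipid droplet protein, 8.07-fold. The summed level of 14 pre-B and lymphoid markers was 772 to 806 in co-culture, against 596 to 601 in OP9 cells. Of the defining ones, Vpreb1 of the surrogate light chain had 77.7 and 76.0 in co-culture and 25.8 and 21.6 in OP9 cells, Ptprc, the leukocyte antigen CD45, had 34.6 and 31.1 in co-culture and 8.93 and 8.58 in OP9 cells, and Pax5 lay at 45.0 and 36.4 in co-culture and 35.7 and 31.6 in OP9 cells. The 3 tested lymphoid markers were Igll1, Blnk and Ighm, and Igll1 and Blnk passed the filter through the NIH3T3 arrays alone. Of these 3, 0 were called, where 5.67% of all tested genes were. At an unadjusted p below 0.05 in limma 0 of the 3 differed, where 19.8% of all tested genes were higher and 30.7% lower. Counts of 0 in so short a list say little. Vpreb1, Ptprc and Pax5 did not pass the filter, so these counts do not cover them. Both tested osteoblast markers were called lower, where 2.97% of all tested genes were. Dmp1, which passed the filter through the MC3T3 arrays alone, had 17.7 and 19.2 in co-culture, against 58.3 and 61.9 in OP9 cells. Phex had 46.7 and 43.8 in co-culture, against 131 and 117 in OP9 cells. The part of these marker changes in the Dcn, Aspn and Omd differences was not tested.

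**Figure D2:**
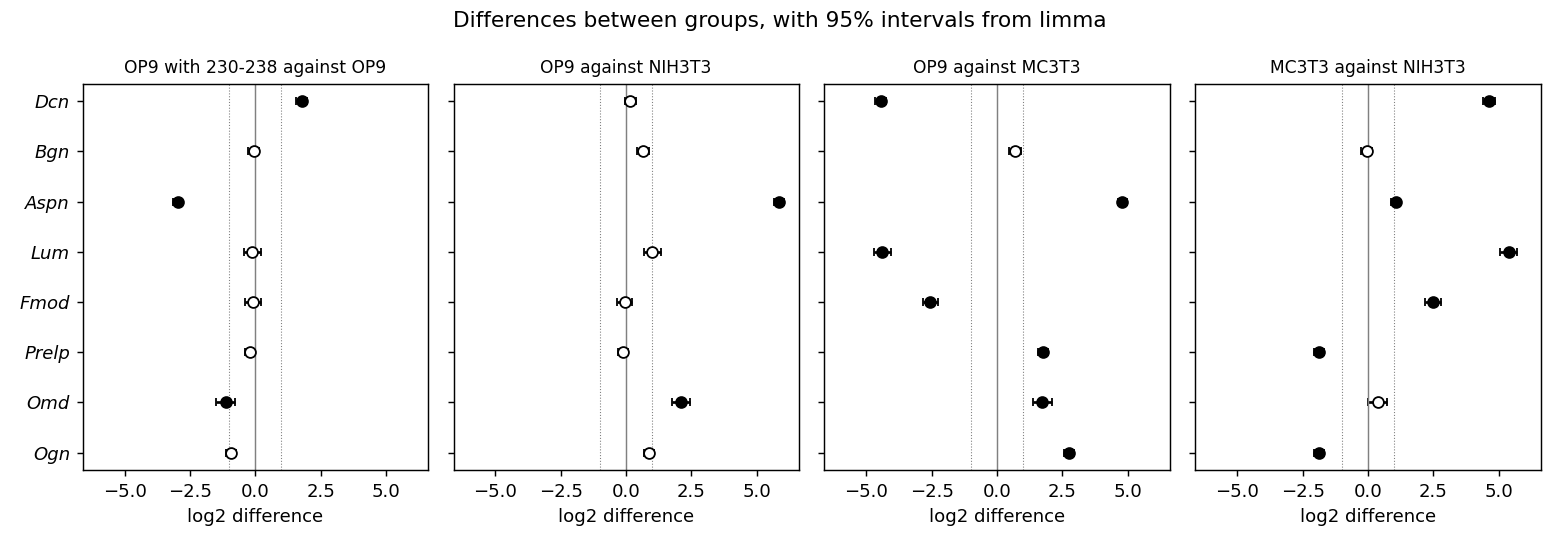
Log2 difference of each gene in 4 comparisons, the first-named group over the second, as points with 95% intervals from limma (2 arrays a group). Filled points were called, open points were not, and dotted lines mark 2-fold. Aspn and Omd lay below 0 in co-culture and above 0 in OP9 cells against NIH3T3 and MC3T3 cells, while Dcn, Lum and Fmod stood out by MC3T3 cells.

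The other comparisons asked how the stromal lines differ, and they share the OP9, MC3T3 or NIH3T3 arrays with each other and with the co-culture comparison. Against NIH3T3 cells, OP9 cells had Aspn 57.6-fold and Omd 4.28-fold higher, both of which passed the filter through the OP9 arrays alone. These were 2 of 8 genes, where 20.5% of all tested genes were called higher. By the probe sets used 0 of 8 were called lower, where 10.3% of all tested genes were (30.8% in either direction). The other probe set of Prelp, given below, was called lower. The median log2 difference was 0.76 over the 8 genes and 0.16 over all tested genes. Without a minimum fold 5 of the 8 genes had adjusted p-values below 0.05 in limma, all 5 with higher values in OP9 cells, where 46.2% of all tested genes were.

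Against MC3T3 cells, OP9 cells differed in 7 of the 8 genes, where 19.9% of all tested genes were called. Of the 7, Lum and Fmod passed the filter through the MC3T3 arrays alone, and Aspn and Omd through the OP9 arrays alone. These were thus tested only because they were high in a group compared, which limits the comparison of shares. Ogn, Aspn, Omd and Prelp were higher in OP9 cells (4 of 8, where 10.5% of all genes were), and Dcn, Lum and Fmod were lower (3 of 8, where 9.41% were). The median log2 difference was 1.21 over the 8 genes and 0.03 over all tested genes. MC3T3 cells set against NIH3T3 cells had Dcn, Lum, Aspn and Fmod higher (4 of 8, where 17.8% of all genes were) and Ogn and Prelp lower (2 of 8, where 9.65% were). There 27.4% of all genes were called in either direction, and the medians were 0.71 over the 8 genes and 0.12 over all genes. Lum and Fmod were here too tested through the MC3T3 arrays alone.

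Dcn and Lum, neighbours in the genome, were both highest in MC3T3 cells. Dcn had 51.2 and 48.9 in OP9 cells, 1072 and 1125 in MC3T3 cells and 45.55 and 43.7 in NIH3T3 cells. By the probe set used it was 21.9-fold lower in OP9 than in MC3T3 cells (limma adjusted p = 2.10e-08) and 24.6-fold higher in MC3T3 than in NIH3T3 cells (limma adjusted p = 1.36e-08). With the mean of its 2 probe sets these log2 differences were -2.26, in place of -4.46, and 2.17, in place of 4.62, both still called. Its order by the probe set used was MC3T3, co-cultured OP9, OP9 and NIH3T3, of which the last pair did not differ beyond the spread (log2 difference 0.17, limma adjusted p = 0.146). Co-cultured OP9 cells remained 6.42-fold below MC3T3 cells.

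Lum had 39.2 and 30.9 in OP9 cells, 693 and 768 in MC3T3 cells and 19.2 and 15.8 in NIH3T3 cells. The MC3T3 arrays were the only ones above 40, and Lum was 21.0-fold lower in OP9 than in MC3T3 cells (limma adjusted p = 1.40e-07) and 41.8-fold higher in MC3T3 than in NIH3T3 cells (limma adjusted p = 4.36e-08). The NIH3T3 level lay near the bottom of the scale, and with 16 added to each value the log2 difference of MC3T3 against NIH3T3 cells was 4.48, in place of 5.39. Between OP9 and NIH3T3 cells the difference was 1.996-fold with an interval of 1.59 to 2.51 and an adjusted p of 0.000329 in limma, just under the 2-fold minimum. It was called without OP9 replicate 2 (log2 difference 1.17), without NIH3T3 replicate 1 (1.13) and after either scaling of the arrays (1.06 and 1.08). Kera and Epyc, which follow Lum on the chromosome and encode the related keratocan and epiphycan, had at most 15.2 on all 8 arrays, MC3T3 included.

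Fmod was also highest in MC3T3 cells, and by the probe set used here OP9 and NIH3T3 cells did not differ beyond the spread. It had 47.5 and 57.3 in OP9 cells, 302 and 309.8 in MC3T3 cells and 49.2 and 60.2 in NIH3T3 cells. This made it 5.87-fold lower in OP9 than in MC3T3 cells (limma adjusted p = 1.32e-06) and 5.62-fold higher in MC3T3 than in NIH3T3 cells (limma adjusted p = 1.16e-06). The size of the difference depended on the probe set. Among the 5 of its 6 probe sets that passed the filter, Fmod was 5.38-fold to 38.7-fold lower in OP9 than in MC3T3 cells, all 5 called. The probe set with the widest difference had 26.4 and 30.5 in OP9 cells, 958 and 1263 in MC3T3 cells and 21.6 and 18.2 in NIH3T3 cells. By it the OP9 level of Fmod exceeded that of NIH3T3 cells by 1.43-fold (limma adjusted p = 0.0182), under the 2-fold minimum.

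Prelp, next to Fmod on chromosome 1, was lowest in MC3T3 cells. It had 485 and 505 in OP9 cells, 156 and 139 in MC3T3 cells and 541 and 544 in NIH3T3 cells. The MC3T3 arrays were thus the low ones, with Prelp 3.36-fold higher in OP9 than in MC3T3 cells (limma adjusted p = 9.70e-07) and 3.68-fold lower in MC3T3 than in NIH3T3 cells (limma adjusted p = 5.18e-07). By its other probe set the first of these was 2.03-fold, still called. The 2 probe sets of Prelp disagreed on OP9 and NIH3T3 cells. The one used for the gene gave a log2 difference of -0.13 (limma adjusted p = 0.17), while the other had 273 and 274 in OP9 cells, against 747 and 663 in NIH3T3 cells, 2.57-fold lower (limma adjusted p = 7.07e-06). Optc, which lies before Prelp and encodes opticin, had 32.0 to 43.0 on all arrays.

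Aspn had the widest span of the genes on chromosome 13. It had 622 and 649 in OP9 cells, 23.4 and 22.7 in MC3T3 cells and 10.5 and 11.6 in NIH3T3 cells. The OP9 arrays stood 57.6-fold above NIH3T3 (limma adjusted p = 1.60e-09) and 27.6-fold above MC3T3 (limma adjusted p = 6.62e-09). The NIH3T3 and MC3T3 levels lay near the bottom of the scale, and with 16 added to each value the log2 differences were 4.59 against NIH3T3 cells, in place of 5.85, and 4.06 against MC3T3 cells, in place of 4.79. Co-cultured OP9 cells, although lower than OP9 cells, still exceeded NIH3T3 by 7.34-fold and MC3T3 cells by 3.51-fold. MC3T3 cells were 2.09-fold above NIH3T3 cells (limma adjusted p = 6.86e-06), both near the bottom of the scale, and this call was lost with the other probe set (1.77-fold) and without NIH3T3 replicate 1 (log2 difference 0.99).

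Omd had its highest values in OP9 cells as well, with 134 and 145, against 38.3 and 46.1 in MC3T3 cells and 28.0 and 38.0 in NIH3T3 cells. OP9 cells exceeded NIH3T3 cells by 4.28-fold (limma adjusted p = 6.81e-06) and MC3T3 cells by 3.32-fold (limma adjusted p = 3.08e-05). MC3T3 and NIH3T3 cells did not differ beyond the threshold (log2 difference 0.37, interval 0.01 to 0.72, limma adjusted p = 0.058). Co-cultured OP9 cells lay between, exceeding MC3T3 by 1.51-fold and NIH3T3 by 1.95-fold, both under the 2-fold minimum.

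Ogn reached its highest level in OP9 cells and its lowest in MC3T3 cells. It had 10603 and 11129 in OP9 cells, 1531 and 1697 in MC3T3 cells and 5778 and 6071 in NIH3T3 cells. OP9 cells were 6.74-fold above MC3T3 cells (limma adjusted p = 6.62e-08), and MC3T3 cells were 3.67-fold below NIH3T3 cells (limma adjusted p = 3.78e-07). OP9 cells were 1.83-fold above NIH3T3 cells (limma adjusted p = 2.02e-05), under the 2-fold minimum. By the probe set used, co-cultured OP9 and NIH3T3 cells did not differ beyond the spread (log2 difference -0.05, interval -0.23 to 0.13). The other Ogn probe set had 6404 and 6416 in co-culture, against 4885 and 5123 in NIH3T3 cells. Its log2 difference was 0.36, and this comparison of it was not tested.

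Bgn was called in none of the 4 comparisons. It had 15298 and 16198 in OP9 cells, 8919 and 10633 in MC3T3 cells and 10423 and 9819 in NIH3T3 cells. The OP9 arrays were above those of the other lines, 1.62-fold against MC3T3 (limma adjusted p = 0.000388) and 1.56-fold against NIH3T3 cells (limma adjusted p = 0.000446), both under the minimum. MC3T3 and NIH3T3 arrays overlapped, with a log2 difference of -0.05 and an interval from -0.28 to 0.17. The other 2 Bgn probe sets gave 1.60-fold to 1.70-fold higher values in OP9 cells than in either line.

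Other members of the family were mostly low. Of 8 further genes of the family with a named probe set, only Podn, which encodes podocan, passed the filter, and it was called in none of the 4 comparisons, with 150 and 134 in co-culture and 121 and 109 in OP9 cells. Beside Kera, Epyc, Optc and Ecm2, already given, the means of Chad, Chadl and Nyx also stayed below 100 in all 4 groups.

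The genes most like each of the 8 over the 8 arrays were found by the root mean square difference of their centred log2 values, the smaller the more alike. For Aspn these were Hsd11b1, which activates glucocorticoids in adipose tissue (0.27), and Npnt, a matrix ligand of integrins (0.37). Hsd11b1 averaged 313 in co-culture, 2529 in OP9, 80.3 in MC3T3 and 62.9 in NIH3T3 cells. For Dcn they were Atp1b1, a subunit of the sodium pump (0.40), and Srpx (0.43), and for Lum the cation channel Trpv2 (0.21) and Cemip, which takes part in hyaluronan breakdown (0.24). For Ogn they were Ypel1 (0.14) and Cd276 (0.21), for Omd Tbc1d12 (0.19) and Sesn3 (0.20), and for Fmod Macrod2 (0.16) and Entpd3 (0.17). For Prelp they were Sdc1, the heparan sulfate proteoglycan syndecan-1 (0.09), and Zcchc24 (0.12), and for Bgn Evc2 and Spata6 (0.06 each). Genes that vary little are alike by this measure for that reason alone, as for Bgn.

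The enzymes that build the sugar chains of these proteoglycans were described by lists. In co-culture 0 of 5 tested enzymes of the linkage region and 0 of 13 of chondroitin and dermatan sulfate were called. Of all tested genes only 5.67% were called in either direction, so counts of 0 in such short lists say little. The median log2 differences of the 2 lists were 0.15 and 0.34. At an adjusted p below 0.05, whatever the fold, 1 linkage enzyme was higher and 1 lower, and 7 of the chondroitin and dermatan sulfate enzymes were higher and 3 lower, where 16.6% of all tested genes were higher and 26.2% lower. The highest of the chondroitin and dermatan sulfate enzymes were Chst15, a sulfotransferase (606 and 609 in co-culture, against 395 and 370 in OP9 cells, 1.59-fold), and Csgalnact1, which starts chondroitin chains (623 and 608 in co-culture, against 362 and 423 in OP9 cells, 1.57-fold). Among 4 tested keratan sulfate enzymes Chst1, which sulfates keratan chains, rose 3.78-fold, with 899 and 894 in co-culture, against 232 and 243 in OP9 cells (limma adjusted p = 1.15e-05). The 3 others were not called, and of all tested genes 2.71% were called higher.

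Between the lines the chondroitin and dermatan sulfate enzymes were mostly lowest in NIH3T3 cells. In OP9 cells 6 of 13 were called higher than in NIH3T3 cells and 0 lower, and in MC3T3 cells 6 were higher and 2, Csgalnact1 and Chst11, lower, where 9.65% of all genes were. Dse and Dsel, the epimerases that turn chondroitin into dermatan sulfate, had log2 differences of 1.37 and 1.60 in OP9 cells and 1.48 and 1.60 in MC3T3 cells, each against NIH3T3 cells. In OP9 cells 3 of 13 were higher than in MC3T3 cells, where 10.5% of all genes were, and 0 lower. The enzymes carry the background shares given above, 20.5% for higher calls in OP9 against NIH3T3 cells and 17.8% in MC3T3 against NIH3T3 cells. For lower calls the shares were 10.3% in OP9 against NIH3T3 cells and 9.41% in OP9 against MC3T3 cells.

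**Figure D3:**
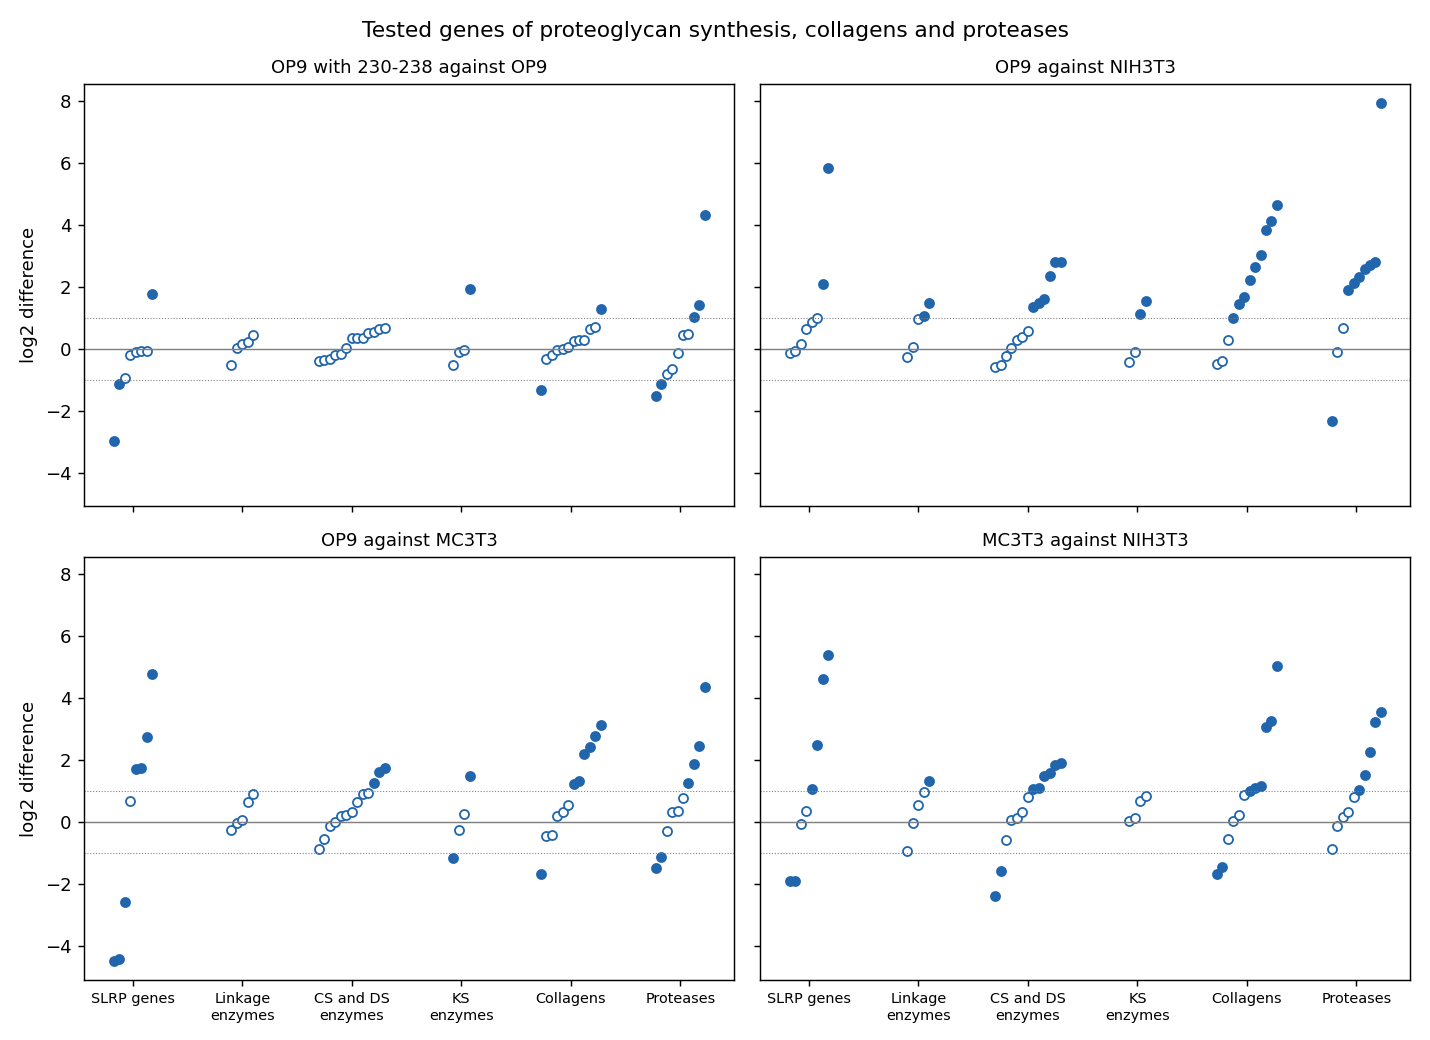
Log2 difference of every tested gene of 6 lists in 4 comparisons, the first-named group over the second. Each point is a gene, filled where called, dotted lines mark 2-fold, and CS, DS and KS are chondroitin, dermatan and keratan sulfate. In co-culture 0 of the linkage and CS and DS enzymes were called, where 5.67% of all tested genes were, and Mmp9 was the highest protease.

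Collagens are the main partners of these proteins. Of 12 tested fibrillar collagens and fibril partners, 1 rose in co-culture, where 2.71% of all genes did, 1 fell, where 2.97% did, and 10 were not called. Col2a1, the collagen of cartilage, had 2204 and 2200 in co-culture, against 878 and 946 in OP9 cells (2.42-fold higher, limma adjusted p = 0.00053). Col12a1, which lies on the surface of fibrils, had 298 and 280.2 in co-culture, against 775 and 680.0 in OP9 cells (2.51-fold lower, limma adjusted p = 0.000933). Col1a1 differed by -0.04 and Col1a2 by 0.01 on the log2 scale. Against NIH3T3 cells, OP9 cells had 9 of 12 higher, where 20.5% of all genes were, and 0 lower, where 10.3% were. The median log2 difference was 1.95. Against MC3T3 cells 6 were higher, where 10.5% of all genes were, and 1 lower, where 9.41% were, with a median of 0.90. The lower one was Col5a3.

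Proteases that can process or cleave proteoglycans and collagens, listed with the procollagen processing enhancer Pcolce, moved in both directions in co-culture. Of 10 tested, 3 were higher, where 2.71% of all genes were, and 2 lower, where 2.97% were. Of the 3, Mmp9 passed the filter through the co-culture arrays alone, which limits the comparison with 2.71%. Mmp9, a gelatinase, had 1505 and 1622 in co-culture, against 81.0 and 77.3 in OP9 cells (19.7-fold higher, limma adjusted p = 1.75e-07). Adamts5, an aggrecanase, and Htra1, a serine protease, were 2.64-fold and 2.05-fold higher. Mmp13, a collagenase, had 665 and 741 in co-culture, against 1869 and 2120 in OP9 cells (2.84-fold lower), and the aggrecanase Adamts4 was 2.20-fold lower. Bmp1, which removes the propeptides of several of these proteoglycans, had 579 and 620 in co-culture, against 417 and 438 in OP9 cells (1.40-fold, not called).

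Of 12 tested growth factors and receptors that proteoglycans of this family bind, 2 were lower in co-culture, where 2.97% of all genes were, and 0 higher, where 2.71% were. At an unadjusted p below 0.05 in limma 6 were higher, where 19.8% of all genes were, and 4 lower, where 30.7% were. Bmp4 had 190 and 170 in co-culture, against 365 and 366 in OP9 cells (2.04-fold lower, limma adjusted p = 0.00224), and Met, the receptor of hepatocyte growth factor and a receptor of decorin, had 164 and 170.0 in co-culture, against 366 and 356 in OP9 cells (2.16-fold lower, limma adjusted p = 1.71e-05). Tgfb1, Tgfb2 and Tgfb3 had log2 differences of -0.10, -0.31 and -0.15 and were not called. Tlr2 and Tlr4, through which biglycan can signal, had log2 differences of 0.49 and -0.64 and did not reach 2-fold. Against NIH3T3 cells, OP9 cells had 4 of the 12 higher, where 20.5% of all genes were, among them Tgfb2 and Bmp4 with log2 differences of 4.83 and 3.43, and 5 lower, where 10.3% were, among them Tlr2 and Tlr4.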

How the data were processed

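Gene expression was measured on 8 Affymetrix arrays, 2 for each of 4 groups taken from the sample labels. The deposited values are normalized intensities on a linear scale for 45101 probe sets an array. The methods of the study name RMA Express, affylmGUI and dChip, and the sources used here do not say which of them the authors ran to make these values. Precision is limited by having 2 arrays a group.

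Gene symbols came from the platform annotation. It gave 34958 probe sets a single symbol, 932 several and 9211 none, and probe sets with a single symbol were used, giving 18194 genes. The intensities deposited by the authors were log2-transformed without adding a constant. The probe set of the highest average log2 level stood for its gene, and 10084 genes passed a filter of 100 or more on 2 or more arrays. Group means were fitted to all 8 arrays in limma (version 3.58.1, under R 4.3.3) with 4 residual degrees of freedom. The p-values of eBayes are two-sided and were adjusted by Benjamini and Hochberg over all tested genes. Co-culture was also compared with MC3T3 and NIH3T3 cells, to order neighbouring levels. The model was tested on simulated data.

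The named genes are the 8 proteoglycan genes, the 2 genes most like each of them, and members of the lists, up to 4 called ones with the widest difference in a comparison. Other list members were chosen after their values were seen. The members and lists were chosen with earlier results of these data known. Further lists held markers of macrophages, endothelium, stromal fibroblasts, and tendon and cartilage. The called genes in co-culture were 0 of 3 tested macrophage, 0 of 8 stromal, and 1 of 2 tendon and cartilage markers (Col2a1), where 5.67% of all tested genes were called. Of 6 endothelial markers 0 were tested. Of the listed genes, some were not analysed here, among them Podnl1, Tsku, Xylt1, Runx2, Bglap, Spp1 and Plin1. Motifs were searched in the 200 bases before the start of each gene in the RefSeq promoter table. Alternatives were the filter, normalization, pseudocount, arrays in the fit, prior, replicate block, probe set choice, minimum fold and leaving out each array in turn.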

Additional observations from a re-analysis of the deposited data

How the results depend on the processing

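Calls that rested on the 2-fold minimum depended on it, and intensities near the bottom of the scale compress differences. With a 5-fold minimum 1 of the 8 genes was called in co-culture against OP9, 1 in OP9 against NIH3T3 and 3 in MC3T3 against NIH3T3 cells, and with no minimum 5 in OP9 against NIH3T3 cells. The filter at 200 left 7 of the 8 genes and 1 call in OP9 against NIH3T3 cells, since Omd was no longer tested. All other alternatives, with each array left out in turn and genes and probe sets kept, gave counts within 1.5 times the main ones. Over all tested genes the counts for co-culture against OP9, OP9 against NIH3T3, OP9 against MC3T3 and MC3T3 against NIH3T3 cells were 572, 3106, 2011 and 2767, without a minimum fold 4314, 7855, 6713 and 7542, and at 5-fold 63, 851, 553 and 682. Quantile normalization moved the median log2 difference of all genes to 0.01 from 0.16 in OP9 against NIH3T3 and to 0.01 from 0.12 in MC3T3 against NIH3T3 cells.

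Differences that changed sign were all uncalled. In co-culture against OP9 cells Fmod was 0.025 with the mean of the probe sets and 0.065 with another probe set, Prelp was 0.053 with its other probe set and without _x_at and _s_at probe sets, and leaving out an array gave -0.28 to 0.059 for Lum and -0.22 to 0.054 for Fmod. In OP9 against NIH3T3 cells Dcn was -0.081 and Fmod 0.026 with the mean of the probe sets, Fmod was 0.048 and 0.52 with other probe sets, 0.52 also with the probe set of the highest linear mean, an alternative added after seeing the data, and -0.21 to 0.084 with an array left out. In MC3T3 against NIH3T3 cells Bgn was 0.032 after median scaling, 0.019 with another probe set and -0.18 to 0.072 with an array left out. The cause was not tested. Of single calls not named above, Aspn in MC3T3 against NIH3T3 cells was lost with a pseudocount of 16 (0.53) and the mean of the probe sets (0.94).

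The replicate number as a block left the calls at 3, 2, 7 and 6 of the 8 genes in the 4 comparisons. Deviations of arrays with the same number had correlations of -0.0039 to 0.18 between groups, the highest for OP9 with MC3T3 cells. These correlations cannot show whether arrays with the same number shared a culture or a batch, which was not tested.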
